A study of Mus musculus with 21 samples.

Results

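The 10 mRNAs described here encode elongation factors (Eef1a1, Eef1b2, Eef1g and Eef2) and other proteins of translation and ribosome assembly (Tpt1, Pabpc1, Npm1, Naca, Btf3 and Rack1), and none of them is counted among the 79 cytosolic ribosomal protein mRNAs to which they were compared. They were chosen by name, as well-known TOP mRNAs outside the ribosomal proteins with transcripts of varied length, out of 55487 genes in the counts table. All 10 were detected in every library and were among the 18146 genes that passed the filter on low counts. From each mouse, a wild type C57BL/6 male at 10 weeks of age, 1 library of hippocampal poly-A RNA was sequenced. In the maternal separation (MS) group, nests were taken from the dam as a whole for 4 hr daily from postnatal day (PND) 10 to 17, and the home cage held limited nesting material over those days. The control group had standard rearing (SR). The series holds 9 MS and 12 SR mice, and the question asked of it was which transcripts still differ in adulthood.

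An mRNA with a 5′ terminal oligopyrimidine (TOP) motif begins with a C that is followed by an unbroken run of pyrimidines. Nearly all ribosomal protein mRNAs and several mRNAs of translation factors carry it. The RNA-binding protein LARP1 binds the capped motif, and mTOR signalling sets how much of these mRNAs is on ribosomes and how stable they are. The set is therefore known for being translated together, while the counts analysed here measure only how much mRNA was present.

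The annotated first bases of the members are shown because the shared start is what defines the set. Among the annotated transcripts of each gene (GENCODE M21, GRCm38), 4 of the 10 members (40.0%) had one whose first base opened a run of at least 5 pyrimidines beginning with C, beside 35 of 79 ribosomal protein genes (44.3%) and 10.4% of 14848 protein-coding genes tested. The run is in capitals below, read on the strand of the gene only. The runs at Pabpc1 and Rack1 opened protein-coding transcripts, that of Eef1b2 a transcript annotated for nonsense-mediated decay and that of Tpt1 a transcript with a retained intron. The starts were at chr1:63177129-63177153 (+) for Eef1b2, chr14:75845331-75845355 (+) for Tpt1, chr15:36608949-36608973 (-) for Pabpc1 and chr11:48800360-48800384 (+) for Rack1.
Eef1b2: CCTTTTTTTCCCTCagcgctggccg
Tpt1: CTTTTCCgcccgctcccccctcccc
Pabpc1: CCCCTTCTCCCCggcggttagtgct
Rack1: CTTTTTCTCCacagggtcgtggtgg

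In the promoter windows of RefSeq (GRCm38.p6), which were available for 7 members, a run of the same kind lay within 25 bases of the annotated start in 5 (71.4%), beside 49 of 58 ribosomal protein genes (84.5%) and 59.0% of 16522 protein-coding symbols, a looser search that most genes pass. Annotated starts often lie some bases away from the start that cells use, and reads counted per gene do not place it.

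The libraries held 17276810 to 30449055 counts. In a principal component analysis of the 500 most variable genes, the MS library called A2 here stood apart with a score of 27.1 on the first component, where the other 20 lay between -12.2 and 11.9. Its 4 dentate granule cell markers summed to 24.2 CPM (counts of a gene scaled to a common, TMM-normalized library total) where the others had 169 to 392, and its 6 striatal markers summed to 1298 CPM where the others had 38.9 to 431, so that its label of hippocampus is at odds with these markers. Library A2 was left out here, and results rest on 8 MS and 12 SR mice unless stated. The methods of the study also leave out an outlier but do not name it, so whether it was this library is not known. The group sizes that the study reports equal those of the full series, with this library counted. The labels name no nest. Animal numbers fall into 7 sets of 3 consecutive numbers, each of 1 condition (the MS sets are called A, B and C here and the SR sets D, E, F and G), and sets C and G come from a higher range of numbers than the rest. Mice were tested as independent, so that p-values measure the spread between mice and would be too small if littermates resemble each other.

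No member differed between MS and SR by the edgeR quasi-likelihood test after Benjamini-Hochberg adjustment over 18146 genes, by which 2 genes (0.011%) were called in all. The log2 fold change was above 0 in 9 of the 10, as it was for 50.3% of all genes, and its median was 0.064, beside 0.15 for the ribosomal protein mRNAs and 0.00084 for all genes tested. The members formed a continuous order from -0.023 (Pabpc1) to 0.15 (Eef1b2), in which Eef1b2 and Tpt1 lay near the ribosomal protein median, and Eef1a1, Btf3, Npm1, Eef2 and Pabpc1 lay nearer the median of all genes. At an unadjusted p under 0.05, 4 of the 10 were higher in MS, namely Eef1b2, Eef1g, Tpt1 and Rack1, and none was lower, while 6.62% of all genes were higher at that p. DESeq2, which called 132 genes (0.727%), also called none of the 10, and its smallest adjusted p among them was 0.0734, for Eef1b2.

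Eef1a1 brings the aminoacyl-tRNA to the ribosome and was the most abundant of the set. It had 1831 CPM in the lowest, 1995 in the median and 2614 in the highest MS mouse. In SR mice it had 1771, 2049 and 2179 CPM. The groups overlapped, the MS median lay under the SR median, and MS mouse C1 alone exceeded every SR mouse. The means were 2086 ± 238 (SD, n = 8) and 2024 ± 109 CPM (SD, n = 12), and the log2 fold change of 0.044 (SE 0.053) did not pass the test (edgeR adjusted p = 0.798).

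Eef1b2 and Eef1g are subunits of the factor that recharges eEF1A with GTP, Eef1b2 as an exchange subunit and Eef1g as a structural one. Eef1b2 had 69.7, 71.7 and 91.1 CPM in the lowest, median and highest MS mouse, against 63.1, 68.2 and 72.1 CPM in SR. All 8 MS mice were above the SR median and 4 were above the highest SR mouse, the clearest separation of the set, though the groups still overlapped. Its log2 fold change was 0.15 (SE 0.043), an increase in the mean level of 11.3%, with an unadjusted p of 0.00163 and an edgeR adjusted p = 0.177. Eef1g had 178, 182 and 214 CPM in MS and 164, 179 and 188 CPM in SR, with 7 of 8 MS mice above the SR median. The log2 fold change was 0.085 (SE 0.036), with an edgeR adjusted p = 0.363.

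Eef2 moves the ribosome along the mRNA by 1 codon after each peptide bond. It had 1095, 1147 and 1251 CPM in the lowest, median and highest MS mouse, and 1095, 1142 and 1240 CPM in SR. These ranges nearly coincided. The log2 fold change was 0.0071 (SE 0.033, 95% interval -0.058 to 0.072, edgeR adjusted p = 0.960), so that a change of the size of the ribosomal protein median lay outside its interval.

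Tpt1 encodes the translationally controlled tumour protein, an abundant cytosolic protein. Its level was 230, 257 and 315 CPM in the lowest, median and highest MS mouse and 215, 234 and 254 CPM in SR. In MS, 6 of 8 mice were above the SR median and 4 above the highest SR mouse. The log2 fold change was 0.14 (SE 0.047), with an unadjusted p of 0.00646 and an edgeR adjusted p = 0.247.

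Pabpc1 covers the poly(A) tail of cytoplasmic mRNAs and links it to initiation. It had 231, 251 and 289 CPM in the lowest, median and highest MS mouse, and 237, 262 and 278 CPM in SR. It was the member with a negative log2 fold change, -0.023 (SE 0.042, edgeR adjusted p = 0.886), and 2 of 8 MS mice were above the SR median. Npm1, a nucleolar protein of ribosome assembly, had 105, 115 and 147 CPM in MS and 108, 116 and 127 CPM in SR. As for Pabpc1, 2 of 8 MS mice were above the SR median, and its log2 fold change was 0.020 (SE 0.049, edgeR adjusted p = 0.918).

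Naca and Btf3 form the nascent polypeptide-associated complex, which binds new chains as they leave the ribosome. Naca had 91.2, 99.97 and 126 CPM in the lowest, median and highest MS mouse and 89.7, 94.6 and 103 CPM in SR. Btf3 had 59.8, 66.7 and 96.1 CPM in MS and 58.7, 67.4 and 74.2 CPM in SR. The log2 fold changes of these partners were 0.087 (SE 0.045, edgeR adjusted p = 0.472) and 0.038 (SE 0.064, edgeR adjusted p = 0.871), and for both only mouse C1 exceeded all SR mice. Rack1 sits on the small ribosomal subunit as a scaffold for signalling proteins. It had 121, 127 and 163 CPM in MS and 117, 123 and 129 CPM in SR, and 7 of 8 MS mice were above the SR median. The log2 fold change of Rack1 was 0.10 (SE 0.042, edgeR adjusted p = 0.352).

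**Figure D1:**
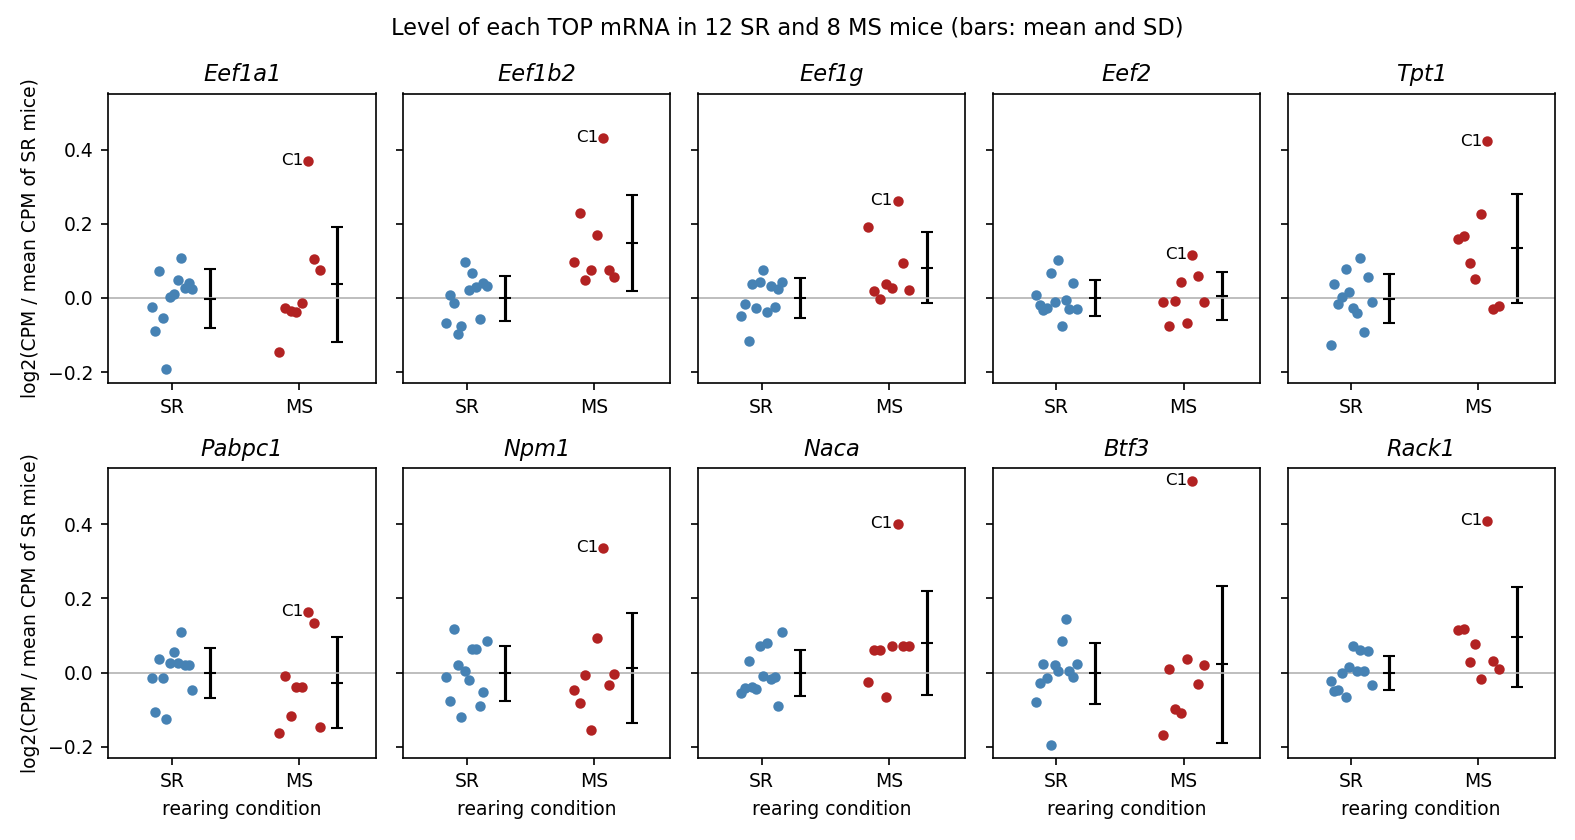
Level of each TOP mRNA per mouse as log2 of its CPM over the mean CPM of the SR mice (y axis) for 12 SR mice (blue) and 8 MS mice (red), with the mean and SD of each group as black bars. MS mouse C1 is the highest MS point in all 10 panels, as in 20.1% of all genes. The groups overlap in each panel, and 4 of 8 MS points of Eef1b2, Tpt1 and Rack1 lie above every SR point.

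For none of the 10 members were all MS mice on one side of all SR mice, as was the case for 0.011% of all genes. The coefficient of variation in MS mice lay between 4.53% (Eef2) and 16.6% (Btf3), against 3.18% (Rack1) to 5.63% (Btf3) in SR, and was higher in MS for each member. Without MS mouse C1 it lay between 3.52% (Eef2) and 7.25% (Pabpc1), and was lower than in SR for Btf3 (5.30%) and Naca (3.88%, SR 4.28%). MS mouse C1 held the highest level of the 20 mice for every member, and it was the highest of the MS mice in 20.1% of all genes. Summed over the 10 members its level was 5307 CPM, where the highest SR mouse had 4532 CPM. Without C1, 5 of the 10 log2 fold changes were above 0 and the median over the members was 0.013, beside 0.10 for the ribosomal proteins. Under that omission Eef1a1, Eef2, Npm1 and Btf3 changed sign (to -0.0093, -0.0095, -0.032 and -0.046), while Eef1b2 and Tpt1 had log2 fold changes of 0.11 and 0.095.

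By sets of animal numbers, Eef1b2 averaged 75.7, 72.3 and 77.5 CPM in MS sets A, B and C, and 66.3 to 69.4 CPM in the SR sets. Tpt1 averaged 263, 257 and 259 CPM in the MS sets and 230 to 240 CPM in the SR sets. For these 2 of the 10 members every MS set lay above every SR set, as was the case for 5.63% of all genes. Rack1, at 125 to 137 CPM in the MS sets and 119 to 127 CPM in the SR sets, overlapped. With counts summed within each set, the log2 fold changes of Eef1b2 and Tpt1 were 0.16 and 0.15, with an edgeR adjusted p = 0.382 for both.

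The comparison was also read within each range of animal numbers. In the high range (3 MS and 3 SR mice, sets C and G, which hold C1 and C3) the median log2 fold change of the 10 members was 0.16 and all 10 were above 0. In the low range (5 MS and 9 SR mice) the median was -0.0016 with 5 above 0, and the ribosomal protein median was 0.14. Btf3 went from -0.062 (SE 0.050) in the low to 0.19 (SE 0.13) in the high range, and Eef1a1 from -0.041 (SE 0.047) to 0.16 (SE 0.099). Tpt1 had 0.14 (SE 0.040) and 0.16 (SE 0.12), and Eef1b2 0.13 (SE 0.041) and 0.20 (SE 0.10). The difference in the MS effect between ranges was called by edgeR for no member and for no gene (0% of 18146), and at an unadjusted p under 0.05 it was seen for 1 of 10 members, Eef1a1 (p = 0.0470, adjusted p = 0.57), and for 8.67% of all genes.

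Relative to the ribosomal protein mRNAs, the order of the members stayed and the zero point moved. In this second edgeR fit, the mean log2 CPM of the 79 ribosomal protein mRNAs of each library was added to its offset, so that a value of 0 means that a gene kept pace with them. Eef1b2 and Tpt1 were at 0.0011 (SE 0.051) and -0.014 (SE 0.053). Pabpc1 was at -0.17 (SE 0.058, unadjusted p = 0.00639, edgeR adjusted p = 0.0813), Eef2 at -0.14 (SE 0.064) and Npm1 at -0.13 (SE 0.064). None of the 10 was called, and 0.209% of all genes were. Of the members 9 were below 0, but so were 86.7% of all genes, since the median of all genes on this scale was -0.14, and the median of the members was -0.084. At an unadjusted p under 0.05, Pabpc1, Eef2 and Npm1 were lower, 3 of 10 beside 30.8% of all genes.

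**Figure D2:**
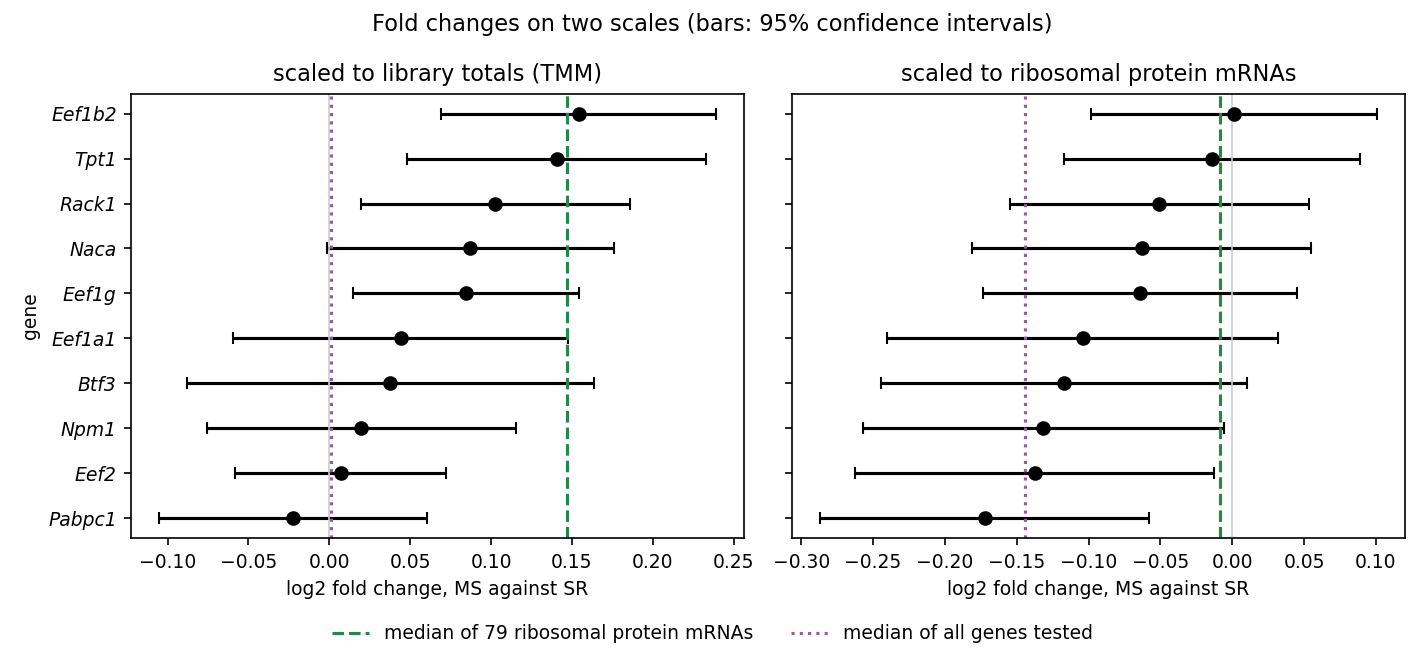
Log2 fold change of MS against SR for each TOP mRNA (x axis), scaled to TMM library totals on the left and to the ribosomal protein mRNAs on the right, with bars of 95% confidence intervals. Eef1b2 at 0.15 and Tpt1 at 0.14 lie beside the ribosomal protein median of 0.15 (dashed), and the other members lie below that line, down to Pabpc1 at -0.023 (the dotted line is the median of all genes).

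The number of members called on the relative scale depended on the fit and on MS mouse C3, which had the lowest ribosomal protein mean of all 20 mice. Without C3, 5 members were called lower relative to the ribosomal proteins (Eef1a1, Eef2, Pabpc1, Npm1 and Btf3), together with 7379 of 18280 genes (40.4%). In the low range of animal numbers the same 5 members were called, together with 23.2% of all genes, at log2 values of -0.19 (Eef1a1), -0.18 (Eef2), -0.23 (Pabpc1), -0.20 (Npm1) and -0.21 (Btf3). Pabpc1 alone was called with the range as a term (edgeR adjusted p = 0.0465, 6.45% of all genes called) and with counts summed by set (edgeR adjusted p = 0.0476, 14.6% of all genes called). Under none of these fits was Eef1b2, Tpt1, Eef1g, Naca or Rack1 called.

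Per mouse, the mean log2 CPM of the 10 members lay 1.36 to 1.75 above that of the ribosomal protein mRNAs in MS (median 1.47) and 1.48 to 1.64 above it in SR (median 1.56). Over the 20 mice the member mean and the ribosomal protein mean had a Pearson r of 0.71 (Spearman's rho 0.54). Within SR mice r was 0.52, within MS mice 0.68, and without C1 and C3, the mice farthest from the median of the ribosomal protein mean, it was 0.50. These are descriptions over libraries that share their total, their preparation and any trend with transcript length, and the median r of 18067 genes outside the ribosomal proteins was -0.0057.

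The members differed in how far they followed the ribosomal protein mean, which was not tested. Over the 20 mice Eef1b2 (r = 0.85), Tpt1 (0.82), Rack1 (0.78) and Eef1g (0.71) had the highest r, and without C1 and C3 their r were 0.86, 0.70, 0.67 and 0.57. Naca had an r of 0.57 and 0.27 without those mice. Btf3 (0.48), Pabpc1 (0.35), Npm1 (0.34), Eef1a1 (0.33) and Eef2 (0.22) had the lowest r. Without those mice their r were -0.038, -0.10, -0.22, -0.14 and -0.16. These r pool MS and SR mice, and so also take in the difference between the groups. In SR mice alone this order was only partly seen. Eef1b2 had the highest r, 0.67, and Eef1g (0.45), Tpt1 (0.44), Btf3 (0.43) and Rack1 (0.40) were alike. Naca (0.30) and Pabpc1 (0.29) followed, and Eef1a1 (0.12), Eef2 (0.072) and Npm1 (-0.0017) were lowest. Within MS mice, C1 and C3 included, r ran from 0.31 (Eef2) to 0.83 (Tpt1), with 0.60 for Pabpc1 and 0.54 for Btf3. An r as high as that of Eef1b2 over the 20 mice was found for 0.365% of genes, and as high as that of Eef2 for 25.5%.

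**Figure D3:**
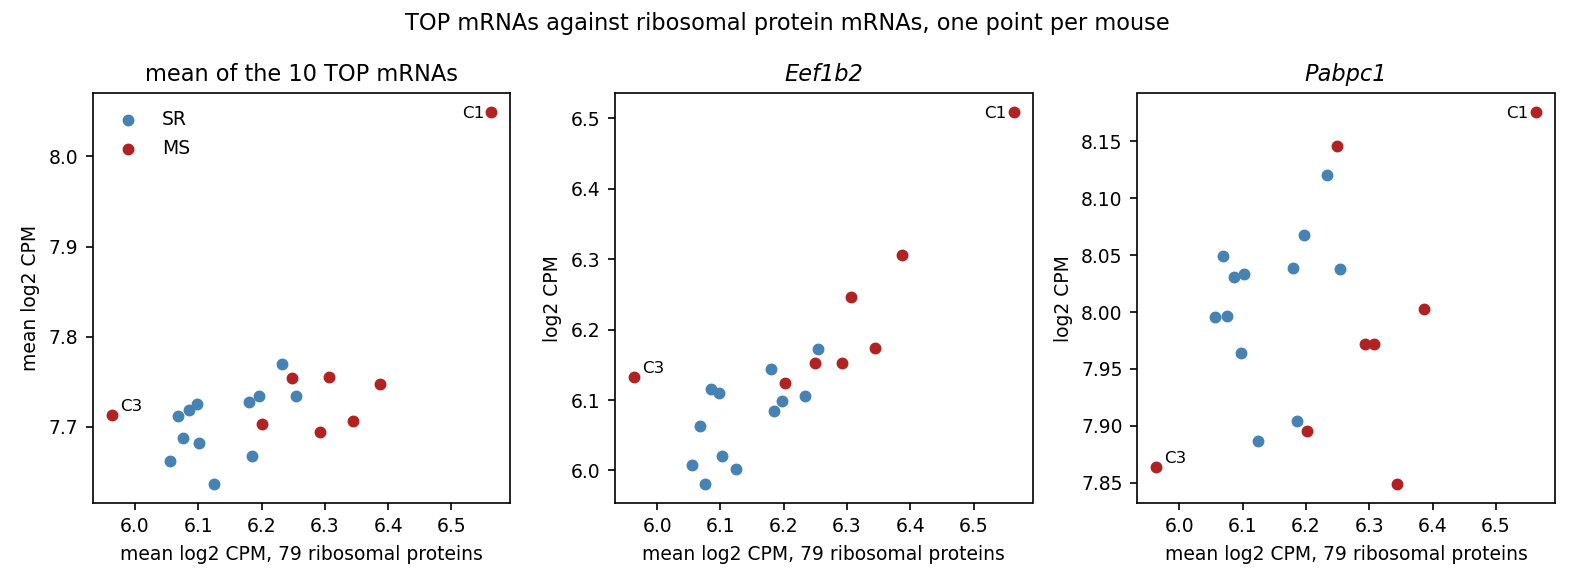
Mean log2 CPM of the 10 TOP mRNAs, and log2 CPM of Eef1b2 and Pabpc1 (y axes), against the mean log2 CPM of 79 ribosomal protein mRNAs (x axis), with 1 point per mouse (SR blue, MS red). Mouse C1 lies at the upper right of each panel and C3 at the left. Without both, r over the pooled MS and SR mice was 0.86 for Eef1b2 and -0.10 for Pabpc1. With all mice, r of Pabpc1 was 0.29 within SR and 0.60 within MS.

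Among themselves the members were unevenly related. Over the 20 mice the 45 pairs had r between 0.099 (Eef2 with Npm1) and 0.91 (Eef1a1 with Btf3), with a median of 0.55. The genes most like the member mean, outside the set and the ribosomal proteins, were Fth1 (r = 0.92), which encodes ferritin heavy chain, Eif5a (0.91), an elongation factor outside the set, Gstm5 (0.91), Jpt1 (0.90) and Ric8a (0.90). None of these 5 was called between MS and SR (edgeR adjusted p of 0.480 to 0.724).

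Transcript length moved with these results. The members' principal transcripts had 885 bases (Naca) to 3089 bases (Eef2). The 4 members of 750 to 1500 bases (Tpt1, Naca, Btf3 and Rack1) had a median log2 fold change of 0.095, beside 0.041 for all 2649 genes and 0.12 for the 39 ribosomal protein mRNAs of that class. The 5 members of 1500 to 3000 bases (Eef1a1, Eef1b2, Eef1g, Pabpc1 and Npm1) had 0.044, beside 0.0093 for 6101 genes and 0.096 for 9 ribosomal protein mRNAs. Over 3000 bases, Eef2 had 0.0071, beside -0.016 for 8150 genes and 0.13 for 2 ribosomal protein mRNAs. The class under 750 bases, with no member, had 0.20 for 29 ribosomal protein mRNAs and 0.041 for 1223 genes. The ribosomal protein medians thus fell with length up to 3000 bases, and the higher value beyond rests on 2 genes. Without MS mouse C1 the medians of the members in the 3 classes that hold members were 0.044, -0.0093 and -0.0095. Those of all genes were then 0.022, -0.00023 and -0.0059, and those of the ribosomal proteins 0.067, 0.041 and 0.12. Single members did not keep a strict order by length, as Btf3 (1091 bases) had 0.038 and Eef1b2 (1939 bases) had 0.15. For Eef1b2 a shorter coding transcript of 681 bases is annotated too, and counts per gene do not say which was measured.

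**Figure D4:**
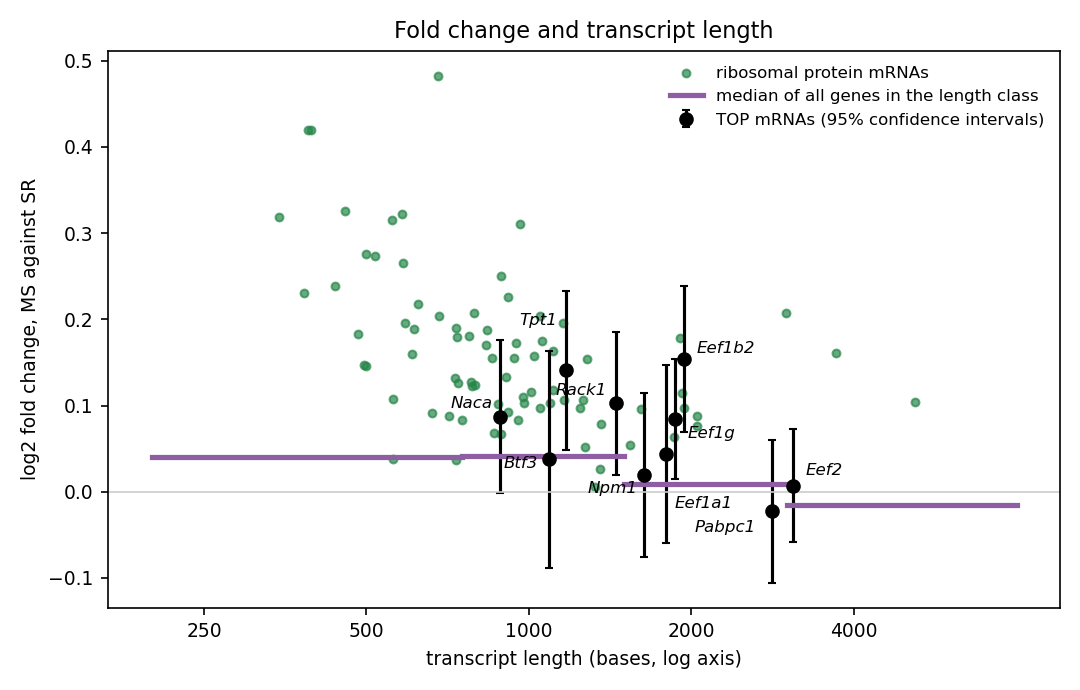
Log2 fold change of MS against SR (y axis) against the length of the principal transcript in bases (x axis, log scale) for the 10 TOP mRNAs (black, bars of 95% confidence intervals) and 79 ribosomal protein mRNAs (green). Purple lines give the median of all genes in each length class, which fell from 0.041 under 750 bases to -0.016 over 3000 bases.

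Each library had its own trend of log2 CPM with transcript length, and this trend had an r of -0.91 with the ribosomal protein mean and -0.80 with the member mean over the 20 mice. With that trend as a term in the fit, the median log2 fold change of the members was 0.033 and that of the ribosomal proteins 0.078. Eef1b2 then had 0.11 (SE 0.031, edgeR adjusted p = 0.184), Tpt1 0.095 (SE 0.037, edgeR adjusted p = 0.331) and Rack1 0.058 (SE 0.029, edgeR adjusted p = 0.471). Eef2 (-0.0034), Npm1 (-0.012) and Btf3 (-0.023) changed sign, and Pabpc1 had -0.061 (SE 0.033). The trend itself was measured from the same libraries and differs between mice of both groups, and why it differs was not tested.

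Levels per transcript length spread the members more widely than their fold changes did. In SR mice Eef1a1 had 1128 ± 61.0 CPM per kilobase (SD, n = 12), followed by Eef2 at 374 ± 12.9 and Tpt1 at 201 ± 9.35. Naca (108 ± 4.62), Eef1g (95.6 ± 3.51), Pabpc1 (91.6 ± 4.17) and Rack1 (84.8 ± 2.69) came next, of which Eef1g and Pabpc1, and Pabpc1 and Rack1, overlapped in mean ± SD. Npm1 had 71.5 ± 3.68, Btf3 61.6 ± 3.47 and Eef1b2 34.8 ± 1.47 CPM per kilobase. The partners of the eEF1 complex, Eef1a1, Eef1g and Eef1b2, thus differed widely in mRNA level on this scale, and the values depend on the transcript length used, since coding transcripts of 681 to 1939 bases are annotated for Eef1b2, 593 to 2817 for Pabpc1, 885 to 6745 for Naca and 745 to 1794 for Eef1a1.

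Eef1a2, the form of elongation factor 1 alpha found in neurons and muscle, had 817 ± 38.3 CPM in MS and 845 ± 31.8 CPM in SR (log2 fold change -0.048, SE 0.034, edgeR adjusted p = 0.616). The log2 ratio of Eef1a1 to Eef1a2 per mouse was 1.35 ± 0.13 in MS and 1.26 ± 0.12 in SR, and the difference of 0.087 had p = 0.141 in a two-sided exact permutation test over 125970 splits of the mice. Over the 7 sets, the difference was 0.076 (exact permutation p = 0.314, where the smallest possible is 0.0286). In bulk tissue, a different share of neurons and a different amount of RNA per neuron cannot be told apart, for this ratio as for every level given here.

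The other paralogs spanned both signs. Npm3 (0.23, SE 0.081) and Pabpn1, which binds poly(A) in the nucleus (0.093, SE 0.044), had unadjusted p of 0.00986 and 0.0476, with edgeR adjusted p of 0.285 and 0.429. Pabpc4 had 0.045, Btf3l4 -0.0098 and Nacad -0.053. None of the 6 paralogs was called, and their median was 0.017.

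Of the other genes of the pathway, none was called in either direction, and at an unadjusted p under 0.05 the counts were 1 of 8, 4 of 30 and 2 of 17 in the lists that follow, beside 11.5% of all genes. The 8 further TOP mRNAs had a median log2 fold change of 0.023 with 6 above 0, from -0.058 (Eif4b) and -0.00084 (Eif3e) to 0.073 (Eif3f) and 0.093 (Eef1d, another exchange subunit of the eEF1 complex). The 30 translation factors without a listed TOP motif had a median of 0.023 with 19 above 0, from -0.089 (Eef2k, the kinase that inhibits eEF2) and -0.088 (Eif4g3) to 0.092 (Eif2b5) and 0.098 (Eif2b2). The 17 regulators of TOP mRNAs had a median of -0.0013 with 7 above 0. Rheb, the small GTPase that activates mTOR complex 1, had the highest value there, 0.15 (SE 0.036, unadjusted p = 0.000497, edgeR adjusted p = 0.134), followed by Eif4ebp1 at 0.13 (SE 0.18). Tsc2 (-0.068) and Tsc1 (-0.061), which hold Rheb inactive, had the lowest, and Larp1 was at -0.0013 (SE 0.027). The ribosomal proteins were above 0 in 79 of 79, from 0.0054 to 0.48, so the members' median lay between theirs and those of these lists. The value of 0.48 was that of Rpl24 (SE 0.19), which had only 0.83 CPM in MS and 0.60 CPM in SR.

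Some reads of the members could be shared with near-identical genes, since how reads that match several places were counted is not given. The ribosomal protein mRNAs could be affected in the same way, and near-identical genes were not searched for them. Genes with over 95% identity over 100 bases or more held counts equal to 11.7% of those of Tpt1, nearly all in the pseudogene Tpt1-ps3 (29.3 ± 5.41 CPM in MS, 27.9 ± 2.17 CPM in SR, log2 fold change 0.071). For Btf3 they came to 13.1%, of which 4.57% were in the pseudogene Gm3531 and 8.48% in Gm9828. Gm9828 overlaps Btf3 by 585 bases on the opposite strand, so that the strand setting, which is not given either, bears on its counts. For Npm1 the near-identical genes came to 11.3%, mostly in Zfp605, which shares only 133 bases. For Eef1a1 they came to 3.93%, mostly in Prex2, which shares 116 bases, and for Eef1g to 3.27%, mostly in the pseudogene Gm4366. The other members had under 1%, and Rack1 none. Genes on the same strand within a member were small RNAs, led by Snora31 in Tpt1 with 382 counts over all libraries.

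Markers of other cells and regions varied widely between mice. The 8 choroid plexus markers had a median log2 fold change of 0.90, all 8 above 0 and none at an unadjusted p under 0.05, and their sum ran from 54.4 to 4228 CPM in MS and from 30.04 to 4571 CPM in SR. With the choroid plexus score as a term the median of the members was 0.072 and none was called. The 6 striatal markers had a median of 0.55, all 6 above 0, with sums of 38.9 to 431 CPM in MS and 42.5 to 269.7 CPM in SR. The medians were 0.25 for 4 blood, 0.077 for 4 interneuron, 0.068 for 4 endothelial, 0.041 for 4 astrocyte, 0.0079 for 4 oligodendrocyte, -0.0013 for 4 microglial, -0.098 for 4 CA pyramidal and -0.10 for 4 dentate granule cell markers. No marker was at an unadjusted p under 0.05, and the part of cell composition in the members' values was not tested further.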

How the data were processed

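The treatment in the labels gave each mouse its group. Libraries were made with the NEBNext Ultra II Directional kit and sequenced on a NovaSeq6000. The authors aligned reads with STAR 2.7.3a to GRCm38 and counted them per gene with featureCounts. The strand setting and the handling of reads with several matches are not given in the sources used here. The deposited table holds raw counts, not normalized or filtered, with 21 columns mapped to samples and 0 columns of other series. Column names show 1 flow cell and lane, so no sequencing batch was found.

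The robust quasi-likelihood test of edgeR 4.0.16 (R 4.3.3) was run on TMM-scaled counts of the genes that filterByExpr kept at a minimum count of 10. P-values were adjusted by Benjamini-Hochberg over the whole table, and 0.05 was the threshold. A positive log2 fold change is a higher level in MS, and intervals are 95% confidence intervals from the standard error. Means ± SD are of CPM, and log2 CPM used a prior count of 2. DESeq2 1.42.0 and limma 3.58.1 served as alternatives. The edgeR fits were also run on simulated counts, in which genes varied independently, without a length trend or sets of animal numbers. That run does not speak to the part of these features in the results. Gene models are those of GENCODE M21, and near-identical genes were found with BLAST+ 2.17.0. The relative fit carries the spread of the ribosomal protein mean into every gene, so that its tests share an error.

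The members and gene lists were chosen with earlier results of these data known. Genes named are the members, their paralogs, the 2 highest and 2 lowest log2 fold changes of other pathway lists (of the marker lists and the ribosomal proteins, summaries only), the 5 genes most correlated with the member mean, and overlapping or near-identical genes with a count. Larp1 and Rpl24 are named in addition. The search of transcript starts for pyrimidine runs, the fits within each range of animal numbers and the reference of longer ribosomal protein mRNAs were chosen after seeing the data. Every member had 1110 counts (Btf3) or more in every library. Counting error is part of the spread between mice given here, and its share was not measured. Runs in the promoter windows were counted, and their sequences are not reported here.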

Additional observations from a re-analysis of the deposited data

Results flagged for a closer look

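A single MS mouse, C1, lay apart from the other 7 MS mice in 6 of the 10 members by Dixon's test at its 95% level, which compares the gap to the next mouse with the range of the group. By the same test C1 was flagged as high in 2.60% of all genes tested and in 22 of the 79 ribosomal protein mRNAs. It had 2614 CPM of Eef1a1 (next highest 2177), 91.1 of Eef1b2 (next 79.2), 147 of Npm1 (next 125), 126 of Naca (next 100.4), 96.1 of Btf3 (next 68.8) and 163 of Rack1 (next 133). The mean log2 CPM of the 10 members was 8.05 in C1 and at most 7.75 in the other MS mice. C1 also had the highest ribosomal protein mean (6.56) and the most negative trend of log2 CPM with transcript length (-0.069) of the 20 mice, and its total of 22291540 counts lay within the range of the others.

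MS mouse C3, of the same set of animal numbers, was flagged for the distance of the members from the ribosomal proteins, 1.75 on the log2 scale where the next MS mouse had 1.51. Its ribosomal protein mean was the lowest (5.96) and its length trend the most positive (0.047) of the 20 mice, while its member mean of 7.71 lay within the range of the others. Chance flags about 1 in 20 groups at this limit, while in these data an MS mouse was flagged in 9.61% of all genes tested. The members are also not independent of each other.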

How the results depend on the processing

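No member was called between MS and SR under any alternative run, and signs turned for values near 0. With all 21 libraries Npm1 was at -0.019, with no filter on low counts Eef2 was at -0.0019, and with the length trend as a term Eef2, Npm1 and Btf3 were at -0.0034, -0.012 and -0.023. Leaving out 1 mouse at a time, Eef1a1 ranged from -0.0093 to 0.065, Eef2 from -0.0095 to 0.017, Npm1 from -0.032 to 0.041 and Btf3 from -0.046 to 0.061, each lowest without MS mouse C1. In the low range of animal numbers Eef1a1, Eef2, Npm1 and Btf3 were at -0.041, -0.026, -0.043 and -0.062, and in the high range Pabpc1 was at 0.061 and the median of the members at 0.16. The cause of these turns was not tested. Over all genes, 2 were called as reported, 132 by DESeq2, 109 without MS mouse C2 or C3, 230 in the low range and 0 to 3 otherwise.

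Relative to the ribosomal protein mRNAs, the members called numbered 1 with the range as a term, 1 with counts summed by set, 5 in the low range, and 0 to 5 when 1 mouse at a time was left out, 5 without MS mouse C3. Over all genes that scale gave 38 calls as reported and 0 to 7379 under alternatives. Eef1b2, at about 0 on this scale, was at -0.012 with all libraries, -0.011 with the range as a term, -0.0024 with sets as a random block in limma-voom, -0.015 with counts summed by set, -0.0099 with the choroid plexus score, -0.0037 against small subunit proteins only, -0.026 in the low range, and -0.034 to 0.016 with 1 mouse left out. Tpt1 was at 0.0050 with the length trend, 0.016 against ribosomal proteins of 750 bases or more, and -0.039 to 0.0033 with 1 mouse left out. In the high range Naca was at 0.019 and Btf3 at 0.0067. Leaving out any other mouse than C3 gave no call of a member. No paired analysis was possible because replicate numbers only name samples here. Every member was far above the filter on low counts in each library, and how far depth limits the precision was not measured.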
